A study of Mus musculus with 22 samples.

Results

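The 41 genes described here are genes of mitosis and of the G2/M phase of the cell cycle: Cdk1 and its cyclins, mitotic kinases, the spindle checkpoint, kinetochore and spindle proteins, motors and cytokinesis factors. They were taken by name, not by a rule on measured values, from a deposited table of 54532 genes. Earlier results of these data were known when they were chosen. All 41 were among the 16638 genes with enough counts to be tested. The libraries were made from whole lungs of young male C57BL6/j mice after 8 days of normoxia or hypoxia, the oxygen level being not given in the sources used here. Over the same days the mice received vehicle or ABT-263 at 50 mg/kg per day; ABT-263 (navitoclax) inhibits anti-apoptotic proteins of the BCL-2 family and is used as a senolytic drug. By the sample titles there were 5 libraries of normoxia with vehicle, 6 of normoxia with ABT-263, 6 of hypoxia with vehicle and 5 of hypoxia with ABT-263, and normoxia with vehicle was the study's control. In 3 libraries a separate treatment tag names the other treatment: replicate 1 of normoxia with ABT-263, replicate 1 of hypoxia with vehicle and replicate 1 of hypoxia with ABT-263. Titles were followed, and counts without these 3 libraries, or with the tag followed, are given beside the results they change.

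Cells that leave G1 and copy their DNA build up these transcripts through S phase into G2, and lose them again after division. CDK1 bound to cyclin B starts mitosis, aurora and polo kinases build the spindle, and the anaphase-promoting complex ends mitosis once the checkpoint proteins release CDC20. Most cells of an adult lung are not dividing, so the summed level of such transcripts in whole tissue is low and follows the few cells that are. In RNA from a whole lung, more dividing cells and more RNA per dividing cell cannot be told apart.

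Many genes of this kind carry a cell-cycle homology region (CHR, letters TTTGAA) near the transcription start, bound by the MuvB complex with B-MYB or FOXM1, and CCAAT boxes bound by NF-Y. RefSeq promoter windows of GRCm38.p6, from 250 bases before to 50 after each start, were at hand for 34 of the 41 genes, and both strands were searched. TTTGAA was in a window of 27 of the 34 genes, against 17.9% of all 32851 windows. CCAAT was likewise in 27 of 34, against 37.4% of windows. Both motifs were present for 24 of 34, against 6.95% of windows, and neither was found for Birc5, Melk, Nuf2 and Nusap1. The variant TTTAAA was in 10 of the 34 against 13.2%, and TTCGAA in 3 of the 34 against 1.56%. A match is only a string of letters in the window, and no binding was measured here.

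Stretches of 100 bases ending just before the start are shown 5′ to 3′ for 8 genes on which later results turn, with TTTGAA and CCAAT, on either strand, in capitals (the reverse strand reads TTCAAA and ATTGG). They lie at chr10:69352913-69353012 (Cdk1, minus strand), chr4:118437344-118437443 (Cdc20, minus), chr2:164769829-164769928 (Ube2c, plus), chr11:99024190-99024289 (Top2a, minus), chr19:37376282-37376381 (Kif11, plus), chr2:129297213-129297312 (Ckap2l, minus), chr13:100786487-100786586 (Ccnb1, minus) and chr11:117849137-117849236 (Birc5, plus).
Cdk1: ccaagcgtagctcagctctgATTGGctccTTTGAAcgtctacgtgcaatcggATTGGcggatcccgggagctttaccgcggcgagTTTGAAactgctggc
Cdc20: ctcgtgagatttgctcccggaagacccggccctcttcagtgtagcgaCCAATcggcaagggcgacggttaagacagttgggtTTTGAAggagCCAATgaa
Ube2c: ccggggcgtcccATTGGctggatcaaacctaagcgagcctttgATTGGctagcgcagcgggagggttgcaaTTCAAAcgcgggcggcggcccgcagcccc
Top2a: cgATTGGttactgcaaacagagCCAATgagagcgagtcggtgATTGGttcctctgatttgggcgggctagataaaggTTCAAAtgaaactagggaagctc
Kif11: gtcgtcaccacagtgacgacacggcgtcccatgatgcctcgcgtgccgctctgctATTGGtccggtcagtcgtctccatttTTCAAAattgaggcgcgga
Ckap2l: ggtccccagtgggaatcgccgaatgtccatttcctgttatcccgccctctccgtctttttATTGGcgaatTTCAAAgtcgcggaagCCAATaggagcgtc
Ccnb1: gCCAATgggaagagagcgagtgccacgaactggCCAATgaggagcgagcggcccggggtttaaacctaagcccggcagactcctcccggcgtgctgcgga
Birc5: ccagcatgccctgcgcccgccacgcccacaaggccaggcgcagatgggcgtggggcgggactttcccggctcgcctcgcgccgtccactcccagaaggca
Cdk1 carries 2 TTTGAA and 2 CCAAT in this stretch, and Top2a carries 1 TTTGAA with 3 CCAAT. Ccnb1 holds 2 CCAAT but no TTTGAA, and Birc5 holds neither.

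All 41 genes were transcribed at low levels. Per kilobase of annotated exon, the mean over the 22 libraries was highest for Ccnb2 (5.66 CPM per kb, CPM being a gene's reads scaled to library size), the anaphase activator Cdc20 (5.65) and the kinase Pbk (4.02). It was lowest for the spindle motor Kif11 (0.281), the spindle pole protein Aspm (0.308) and the checkpoint kinase Ttk (0.317). Library totals ran from 11509016 to 15744202 counts, and single genes were counted at between 3 reads (Ttk in its lowest library) and 884 reads (Top2a in its highest). For ABT-263 against vehicle in hypoxia, their log2 fold changes carried standard errors with a median of 0.46, while the median over all genes tested was 0.11. Lung genes were present throughout, with the alveolar type 2 gene Sftpc at 22554 to 32951 CPM and the alveolar type 1 gene Ager at 1506 to 2552 CPM.

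The 41 genes moved together from library to library. On log2 CPM, the first principal component of their levels held 90.7% of the variance and all 41 loaded on it with one sign, Pbk (0.22), Ccnb1 (0.21) and Cdk1 (0.20) most and Cenpa (0.08) least. Their mean log2 CPM was 1.75 ± 0.28 (SD, n = 5) in normoxia with vehicle, 2.57 ± 1.28 (n = 6) in normoxia with ABT-263, 2.20 ± 0.23 (n = 6) in hypoxia with vehicle and 3.31 ± 0.50 (n = 5) in hypoxia with ABT-263. In the ABT-263 group of normoxia, replicates 2 and 6 stood at 4.08 and 4.07 and replicate 1 at 2.81, while replicates 3, 4 and 5 stood at 1.43 to 1.53, inside or just below the range of the vehicle libraries (1.46 to 2.13). In hypoxia all 5 ABT-263 libraries (2.65 to 4.003) were above all 6 vehicle libraries (1.89 to 2.46). The genes summed to 0.0122% of counts in the lowest library and 0.0858% in the highest, replicates 5 and 2 of normoxia with ABT-263.

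**Figure D1:**
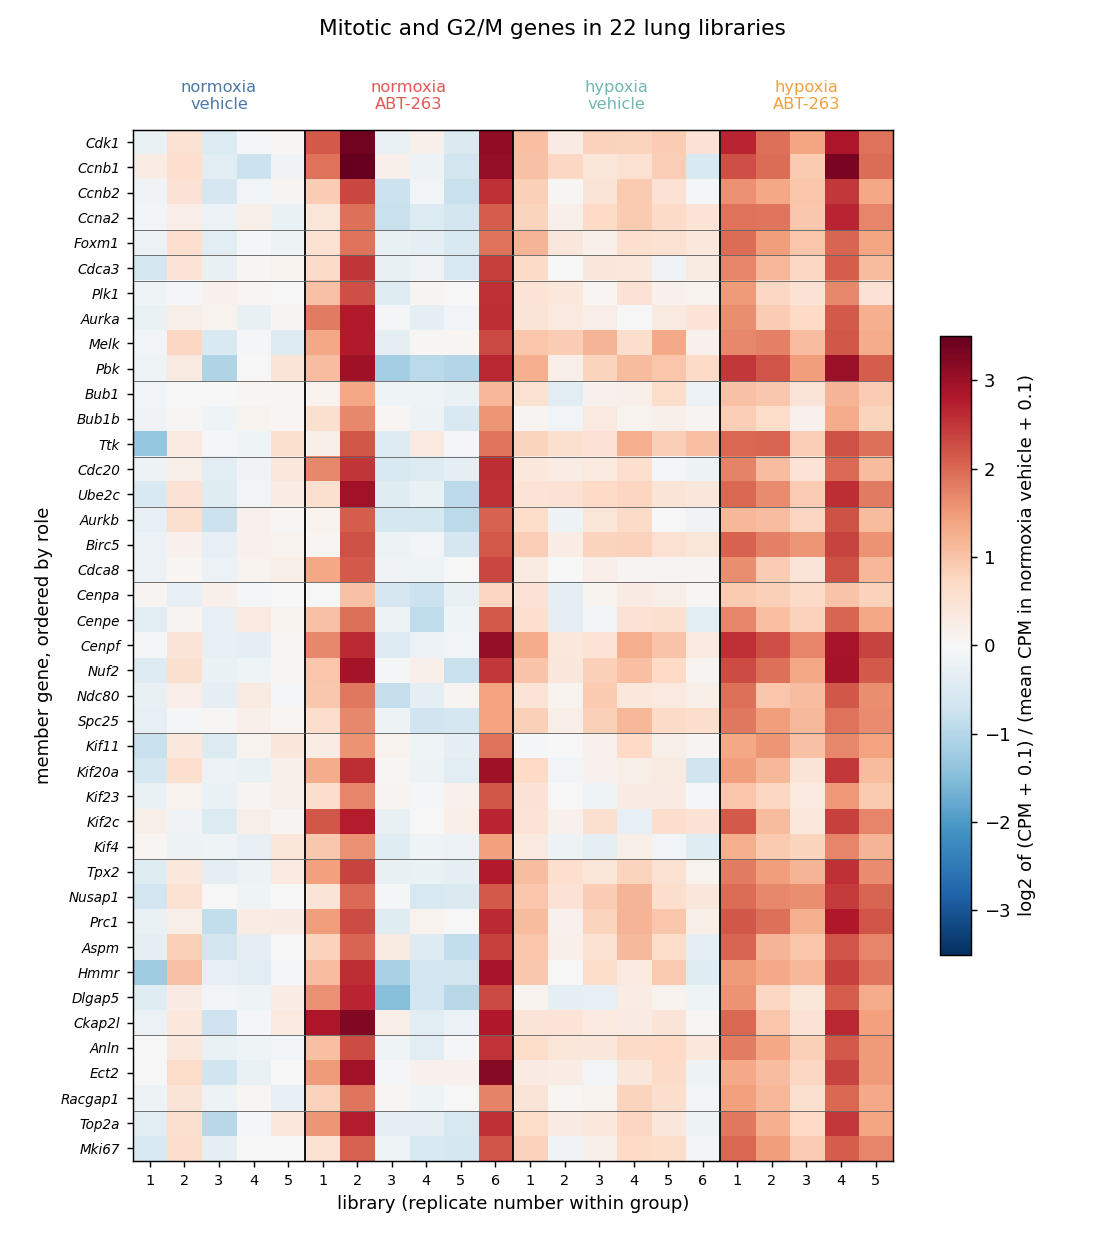
Level of each of the 41 genes (rows, by role) in each of the 22 libraries (columns, by group), as log2 of CPM over the mean of normoxia with vehicle, both with a pseudocount of 0.1. Replicates 2 and 6 of normoxia with ABT-263 and replicate 4 of hypoxia with ABT-263 are the darkest columns, and replicates 3 to 5 of normoxia with ABT-263 look like vehicle.

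In hypoxia these genes stood higher in ABT-263 libraries than in vehicle libraries, to a different degree in each library, but none passed the adjusted test in the fit of all 4 groups. For 26 of the 41 every ABT-263 library lay above every vehicle library, a pattern seen in 1.26% of all genes tested, and fitted log2 fold changes were above 0 for all 41 (median 1.26, range 0.67 to 1.76, against a median of -0.01 over all genes). By edgeR's quasi-likelihood test with Benjamini-Hochberg adjustment over all genes, 0 of 41 passed the threshold of 0.05 (background 0.114% of genes), the smallest adjusted p being 0.0673 for Kif4, and 38 had an unadjusted p under 0.05 (background 7.1%). That number was 25 without the 3 libraries with conflicting labels and 1 with treatment read from the tag, a setting in which no gene tested passed the adjusted test. The fit shares one spread with the uneven normoxic ABT-263 libraries, and a fit of the 11 hypoxic libraries alone called 34 of 41 higher (background 0.716%).

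Of the 4 genes of the CDK1 core, Ccnb1 (1.76) and Cdk1 had log2 fold changes above the median of the 41, Ccna2 (1.30) was close to it and Ccnb2 (1.17) lay below it. Cdk1, the kinase that drives entry into mitosis, was at 31.2, 18.6, 12.7, 34.9 and 18.3 CPM in the 5 ABT-263 libraries of hypoxia, and at 5.94 to 10.1 CPM (median 8.48) in the 6 vehicle libraries. The lowest treated library was above the highest vehicle library, and the log2 fold change was 1.51 ± 0.57 (SE). Ccnb1, which encodes cyclin B1, was at 4.98, 3.998, 1.88, 10.4 and 3.96 CPM with ABT-263 and at 0.628 to 2.06 CPM (median 1.54) with vehicle. Replicate 3 lay inside the vehicle range, and the other 4 did not. Ccna2, the cyclin of S and G2 phase, stood at 11.6 to 38.8 CPM with ABT-263 and 6.73 to 11.5 CPM with vehicle, groups that just failed to touch.

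Among regulators, Foxm1, the transcription factor of many G2/M genes, was at 10.1, 7.13, 5.07, 10.8 and 6.77 CPM with ABT-263 against 2.90 to 5.90 CPM (median 3.55) with vehicle. Its groups overlapped only through vehicle replicate 1, at 5.90 CPM, one of the libraries with conflicting labels. Cdca3, a factor of mitotic entry, was at 13.4, 9.13, 6.71, 17.8 and 8.84 CPM against 3.66 to 6.49 CPM. Pbk, a mitotic kinase, was at 15.1, 12.4, 7.37, 22.1 and 11.7 CPM against 3.04 to 6.49 CPM, with no overlap. Plk1, the polo kinase of spindle assembly, was at 6.202, 3.56, 3.03, 7.002 and 3.06 CPM against 2.25 to 3.06 CPM (median 2.56), so that 2 treated libraries lay at the top of the vehicle range. Plk1 and Melk, at log2 0.80 ± 0.43 and 0.74 ± 0.45, had the largest unadjusted edgeR p values of the 41 in this comparison, and Hmmr was the only other above 0.05.

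The machinery of chromosome segregation followed. Cdc20, the activator of the anaphase-promoting complex, was at 18.3, 11.7, 7.69, 21.7 and 11.9 CPM against 4.84 to 8.33 CPM (median 6.75), only replicate 3 falling within the vehicle range. Birc5 (survivin), of the chromosomal passenger complex, was at 19.1, 15.6, 13.5, 23.8 and 13.5 CPM against 5.48 to 8.26 CPM. In replicate 3, the lowest of these libraries, Birc5 was 1.91 times the vehicle mean, the highest ratio of the 41 genes there. Its partner Aurkb, the kinase of that complex, was at 5.63, 5.30, 4.26, 11.9 and 5.45 CPM against 2.18 to 3.99 CPM, a narrow gap apart from replicate 4. Cenpa, the histone H3 variant of centromeres, was at 22.8 ± 1.98 CPM (SD, n = 5) against 14.1 ± 2.62 (n = 6). Relative to its mean, its SD was the smallest of the 41 with ABT-263, but not with vehicle. Its groups did not overlap, and its log2 fold change was 0.69 ± 0.24. Cenpf, of the outer kinetochore, was at 14.5, 11.8, 7.94, 18.1 and 12.6 CPM against 3.05 to 6.05 CPM, the largest log2 fold change of the kinetochore genes (1.57 ± 0.51).

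Of the 5 kinesins and 3 cytokinesis factors, Kif4, Kif11, Anln and Ect2 had separate groups, and Kif20a, Kif23, Kif2c and Racgap1 overlapped. Kif4, a chromosome-bound kinesin, was at 7.79, 5.997, 5.48, 10.47 and 7.35 CPM with ABT-263 and 2.33 to 4.05 CPM (median 2.87) with vehicle. Kif11, the motor that separates spindle poles, was at 3.32, 3.82, 2.62, 4.17 and 3.47 CPM against 1.18 to 2.07 CPM (median 1.36). Neither gene overlapped between the groups, and with the kinetochore gene Ndc80 they had the smallest p values of the 41 (unadjusted 0.000367 for Kif4 and 0.00101 for Kif11). Kif23, a motor of the central spindle, was at 10.8, 9.21, 6.96, 16.1 and 10.6 CPM against 4.93 to 7.89 CPM. Prc1, which bundles microtubules there, was at 21.7, 18.1, 11.3, 33.7 and 21.97 CPM against 5.22 to 10.97 CPM, and Anln, a scaffold of the contractile ring, at 26.1, 19.1, 13.3, 33.1 and 21.1 CPM against 9.69 to 12.1 CPM. Of the chromosome proteins, Mki67, the proliferation antigen Ki-67, was at 41.6, 28.5, 19.1, 45.1 and 33.6 CPM against 9.37 to 18.0 CPM (median 13.8). Top2a, which untangles sister chromatids, was at 36.3, 23.9, 16.3, 55.9 and 26.3 CPM against 8.79 to 16.8 CPM, replicate 3 lying just inside the vehicle range.

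Within this group the libraries kept an order. Counting for each library the genes above the highest hypoxic vehicle library, replicates 1, 2 and 4 had all 41 (background over all genes 13%, 12.4% and 22.7%), replicate 5 had 39 (22.6%) and replicate 3 had 26 (15.6%). The median of the 41 ratios to the vehicle mean was 3.61 in replicate 4, 2.55 in replicate 1, 2.11 in replicate 5, 1.82 in replicate 2 and 1.32 in replicate 3, while the same median over all genes lay between 0.981 and 0.998 in each. The 7 genes not called in the fit of the 11 libraries were Bub1, Bub1b, Ckap2l, Kif20a, Melk, Plk1 and Top2a.

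**Figure D2:**
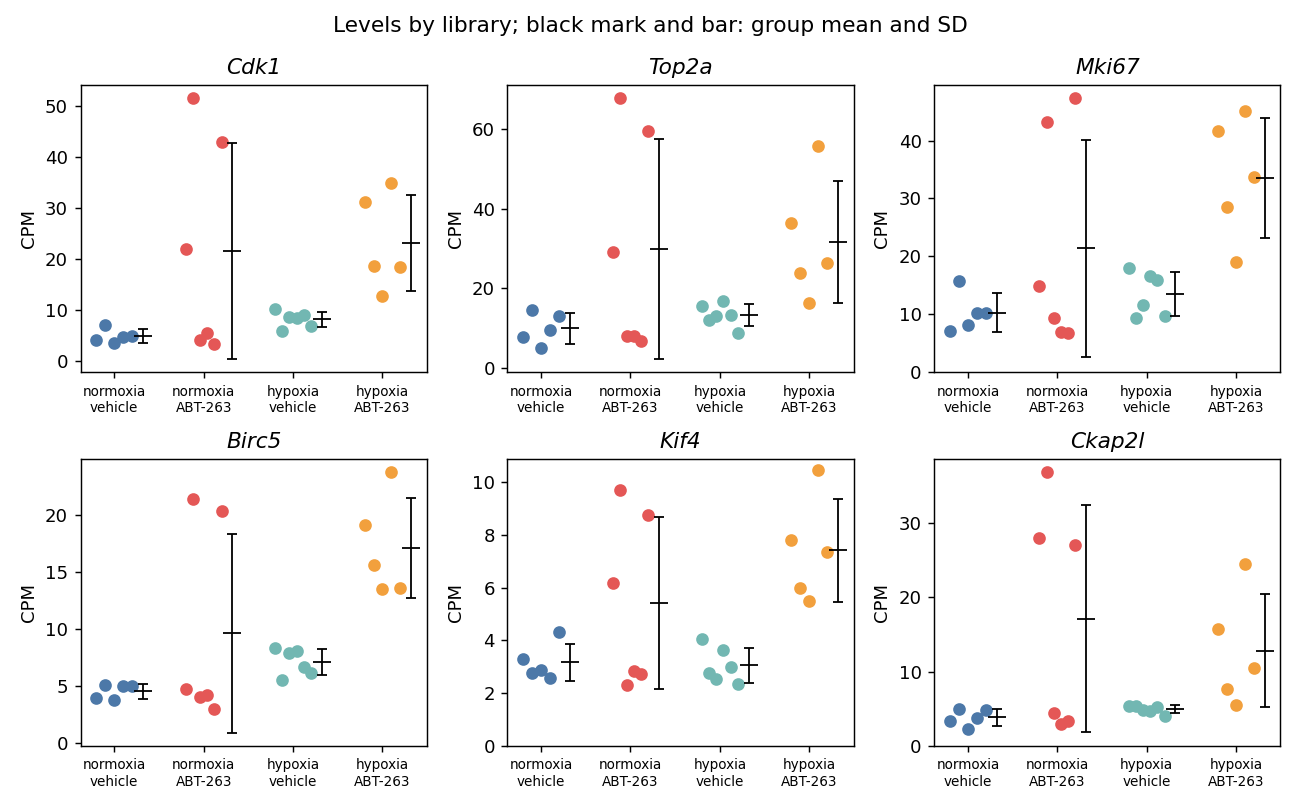
CPM of 6 genes in each library, by group, with the group mean and SD beside the points. Birc5 and Kif4 in hypoxia show no overlap between ABT-263 and vehicle, whereas in normoxia 3 ABT-263 libraries stay with vehicle in most panels.

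In normoxia the ABT-263 libraries were much more uneven. All 41 fitted log2 fold changes were above 0 (median 1.35, range 0.18 to 2.21, median over all genes 0.01), and 36 had an unadjusted p under 0.05 by edgeR (background 7.45%). None passed after adjustment (background 0.108%), and no gene had every ABT-263 library above every vehicle library (background 1.09%). Replicates 2 and 6 had all 41 genes above the highest normoxic vehicle library (background 22.2% and 20.8%) and replicate 1 had 32 (19.9%). Replicates 3 and 4 had none (24.4% and 19%), and replicate 5 had 1 (23.5%). The median ratio to the vehicle mean was 4.97 in replicate 2, 5.46 in replicate 6 and 2.01 in replicate 1, against 0.834, 0.868 and 0.794 in replicates 3, 4 and 5.

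Cdk1 stood at 21.9, 51.5, 4.14, 5.52, 3.37 and 42.8 CPM in replicates 1 to 6 of normoxia with ABT-263, and at 4.11, 7.04, 3.43, 4.70 and 4.97 CPM in the 5 vehicle libraries. Replicates 1, 2 and 6 lay far above the highest vehicle library, and the other 3 lay within the vehicle range or, for replicate 5, just under it. Top2a showed the same division, with 29.2, 67.9 and 59.6 CPM in replicates 1, 2 and 6 and 8.01, 7.94 and 6.74 CPM in replicates 3, 4 and 5, vehicle being at 4.9995 to 14.6 CPM. Mki67 did so less sharply, since replicate 1, at 15.0 CPM, lay under the highest vehicle library (15.7 CPM), while replicates 2 and 6 were at 43.2 and 47.4 CPM. Without replicates 2 and 6 the median log2 fold change of the 41 genes in normoxia was 0.15, and without replicate 1 as well it was -0.27, both fits with the other 3 groups kept. These are the libraries in which the 41 genes were highest, so the lower medians follow from the choice.

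**Figure D3:**
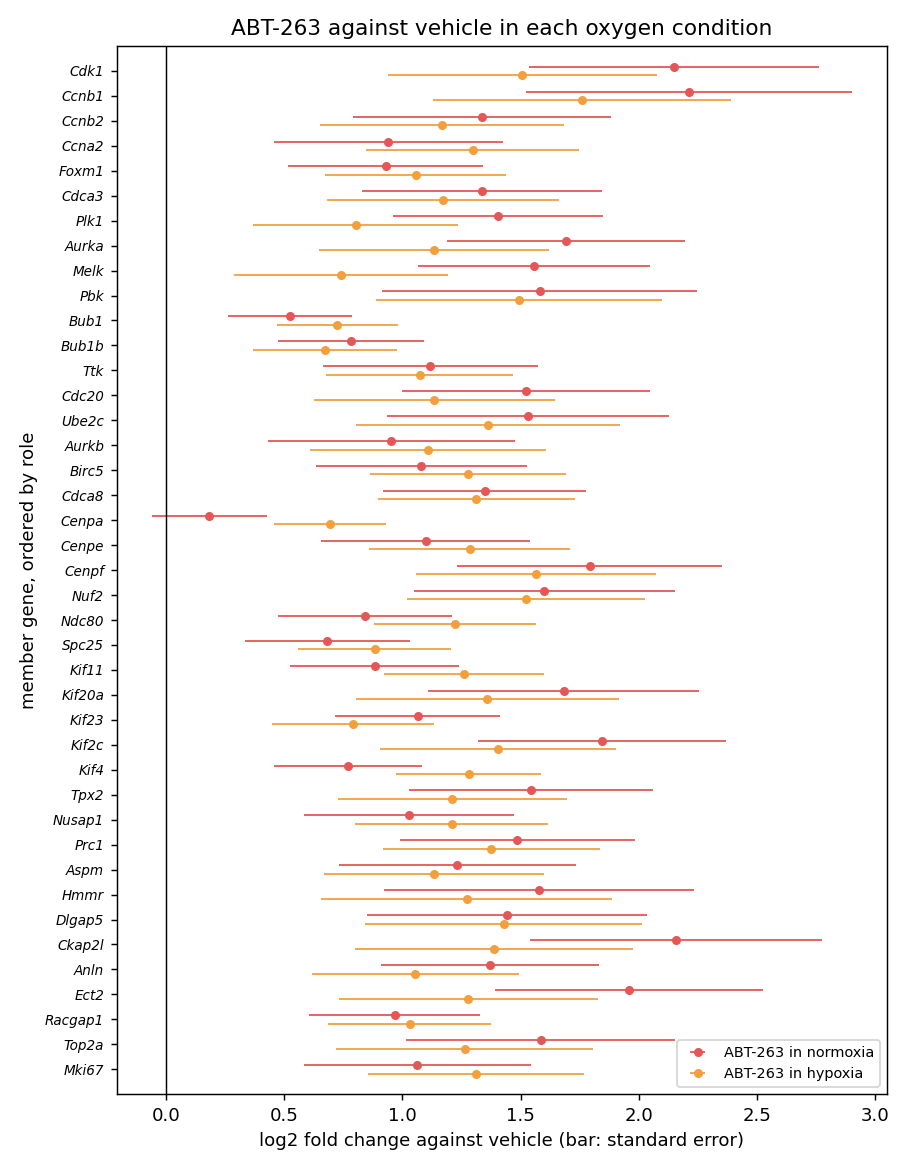
Fitted log2 fold change of ABT-263 against vehicle for each of the 41 genes in normoxia and in hypoxia, with its standard error. The medians are 1.35 and 1.26, and Cenpa in normoxia, at 0.18, is the lowest value.

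Replicate 1 of normoxia with ABT-263, whose treatment tag says vehicle, carried the genes in other proportions than replicates 2 and 6. Ckap2l, a spindle protein, was at 28.0 CPM there, 7.32 times the vehicle mean, close to its 36.9 and 27.1 CPM in replicates 2 and 6. Kif2c, a kinesin that shortens microtubules, was 4.78 times, Cdk1 4.52 times, Ccnb1 4.05 times and the kinase Aurka 3.61 times the vehicle mean. Birc5 was at 4.73 CPM, 1.05 times the vehicle mean, although replicates 2 and 6 had 21.4 and 20.3 CPM. Cenpa (1.001 times), Aurkb (1.09), Bub1 (1.10), Ttk (1.19) and Kif11 (1.20) were also near vehicle in this library. In hypoxia with ABT-263 the order differed: the median ratio of the 5 libraries was 2.20 for Birc5, 2.40 for Kif11 and 2.49 for Mki67, and 2.14 for Ckap2l. The second principal component of the 41 genes, with 3.51% of the variance, was highest in that library (3.06, against -1.58 to 1.40 in the other 21) and had its largest loading on Ckap2l (0.36).

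**Figure D4:**
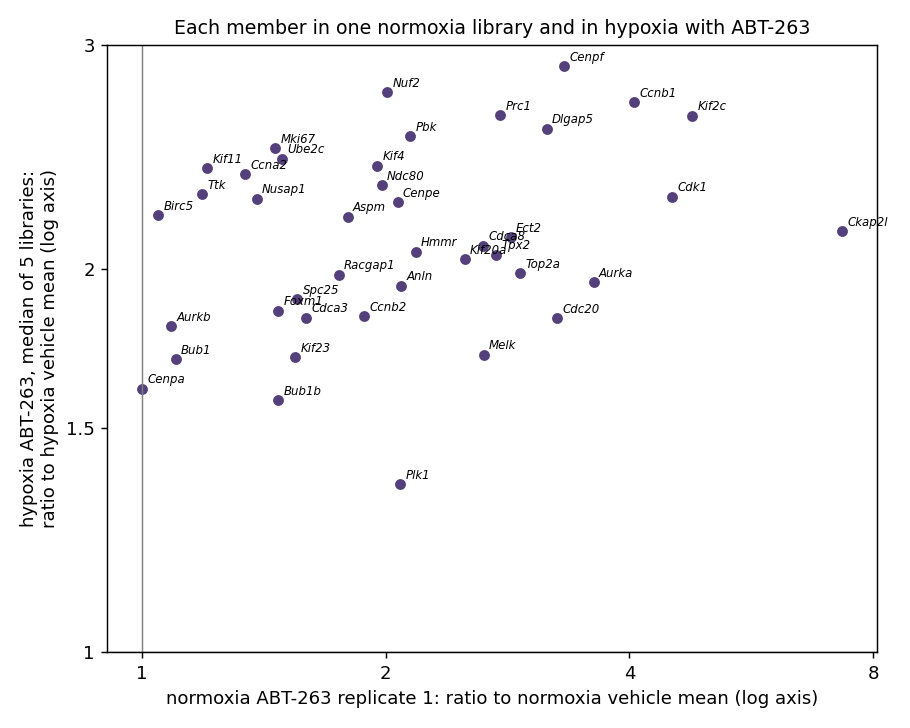
Each of the 41 genes by its ratio to the vehicle mean in replicate 1 of normoxia with ABT-263 (horizontal, log axis) and by its median ratio in the 5 libraries of hypoxia with ABT-263 (vertical, log axis). Ckap2l (7.32) and Kif2c (4.78) lie far right, while Birc5, at 1.05, and Cenpa, at 1.001, lie at the left.

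Averaged over both oxygen conditions, ABT-263 raised 21 of the 41 genes and lowered none at an adjusted p under 0.05 (background for a rise 1.23% of all genes), and all 41 had an unadjusted p under 0.05 (background 9.27%). The median log2 fold change was 1.21, from 0.44 for Cenpa to 1.99 for Ccnb1. By role, all 5 kinesins rose, led by Kif2c (1.63 ± 0.36) and Kif4 (1.02 ± 0.22, adjusted p = 0.0148 by edgeR, the smallest of the 41). All 3 cytokinesis factors rose, Ect2 (1.62), which activates RhoA at the division site, Anln (1.21) and Racgap1 (0.999), its partner in the central spindle. Of the 6 centromere and kinetochore genes 4 rose, Cenpf (1.68 ± 0.38), Nuf2 (1.56), Cenpe (1.19), a motor that captures microtubules, and Ndc80 (1.03), while Spc25 (0.78, adjusted p = 0.0855 by edgeR) and Cenpa (0.44, adjusted p = 0.175) did not pass.

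Of the 4 genes of the CDK1 core, Cdk1 (1.83 ± 0.42) and Ccnb1 (1.99 ± 0.47) rose. Among 7 spindle assembly genes Ckap2l (1.77), Prc1 (1.43) and Tpx2 (1.38), the activator of aurora A, rose. In the chromosomal passenger complex Cdca8 (1.33), which encodes borealin, and Birc5 (1.18) rose and Aurkb (1.03 ± 0.36) did not pass. Aurka was the only one of 4 mitotic kinases to pass (1.41) and Ttk the only one of 3 checkpoint genes (1.10, adjusted p = 0.0499 by edgeR). Pbk (1.54) and Dlgap5 (1.44) did not pass, at larger fold changes than Kif23 (0.93), which did, so passing does not set the roles apart. Cdc20, Ube2c, Foxm1, Cdca3, Top2a and Mki67 had log2 fold changes of 0.99 to 1.45 with adjusted p values of 0.0600 to 0.0679 by edgeR. Without the 3 libraries with conflicting labels only Kif11 and Kif4 passed (2 genes, background 0.724%) at a like median of 1.25. With treatment read from the tag none passed (0 of 41 by edgeR, 33 at an unadjusted p under 0.05). That setting called 0 of all genes tested, against 423 in the main fit. With limma-voom 2 passed and with DESeq2 39, settings that called 239 and 793 of all genes. Leaving out single libraries gave 1 to 38, the fewest without replicate 3 of normoxia with vehicle or replicate 4 of hypoxia with ABT-263. All genes called were 173 and 164 without these 2, and 478 where 38 passed.

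With vehicle, the genes tended to be higher in hypoxia than in normoxia, and how many were called depended on the fit. Of the 41, 39 had a log2 fold change above 0 (median 0.42, range -0.05 for Kif4 to 0.94 for Melk), but in the fit of all 4 groups none passed (background for a rise 13.5%) and 1, Spc25 (0.76 ± 0.35), had an unadjusted p under 0.05 (background 19.1%). Groups did not overlap for 3 genes, Anln, Birc5 and Spc25, a share of the 41 close to the 7.02% of all genes. Birc5 was at 3.91, 5.02, 3.71, 5.01 and 4.97 CPM in normoxia and at 5.48 to 8.26 CPM (median 7.23) in hypoxia. Spc25, of the NDC80 complex that binds microtubules, was at 3.84 to 5.39 CPM in normoxia and 5.55 to 10.7 CPM in hypoxia. The median ratio of the 41 genes to the normoxic vehicle mean was 1.07 to 1.58 in the 6 hypoxic libraries. A fit of these 11 libraries alone called 15 of 41 higher (background 14.7%), among them Spc25, Anln, Ccna2, Birc5 and Cdk1. Erythroid precursor genes moved in the same direction, summing to 98.8 to 109 CPM in normoxia and 142 to 266 CPM in hypoxia with vehicle, with 5 of 9 tested higher and 1 lower. Their part in the result was not tested. Of 12 granulocyte precursor genes, which summed to 217 to 343 CPM in normoxia and 530 to 800.5 CPM in hypoxia, 2 of 6 tested were higher, and Ms4a3 was at 0 in all 6 hypoxic libraries. Chil3, in this sum, is also on a list of 12 alveolar macrophage genes. That list summed to 586 to 841 CPM in normoxia and 929 to 1200 CPM in hypoxia with vehicle.

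With ABT-263 in both groups, hypoxia against normoxia called Spc25 (0.97 ± 0.32, adjusted p = 0.0228 by edgeR) and Cenpa (0.67 ± 0.24, adjusted p = 0.0279) higher, 2 of 41 against a background of 17.9% of genes. None was called in a fit of these 11 libraries alone, without the 3 libraries with conflicting labels, with the tag followed or with no filter on low counts. An unadjusted p under 0.05 was found for 6 (background 21.7%), and no gene had separate groups (background 8.47%). Cenpa was at 12.6, 25.8, 8.35, 7.45, 10.4 and 21.3 CPM in normoxia with ABT-263 and at 20.0 to 25.2 CPM in hypoxia with ABT-263. Without replicates 2 and 6 of the normoxic group, 37 of 41 were called higher (background 18.9%) with a median of 1.45. The 2 libraries left out are those in which the 41 genes were highest, so this count follows from the choice and supports no difference.

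No difference between the ABT-263 effects of the 2 oxygen conditions was found in the fit of all libraries. The interaction had a median log2 of -0.11 (hypoxia minus normoxia, range -0.82 for Melk to 0.51 for Kif4), no gene passed by edgeR (0 of 41, background 0%) and none had an unadjusted p under 0.05 (background 3.58%), the smallest adjusted p being 0.694 for Cenpa. The median standard error of 0.67 was several times the median itself. The sign of the median was not stable: it was 0.31 with limma-voom, and 1.01, 1.501 and 1.16 (2, 12 and 5 genes called) without replicates 2 and 6 of normoxia with ABT-263, without replicates 1, 2 and 6, and without the 5 libraries high in Mcidas described later, sets that remove the highest normoxic values. Of all genes tested, 8, 42 and 29 were called in these fits. The last set also leaves out replicates 1 and 4 of hypoxia with ABT-263.

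Other genes of cell division, from lists that do not overlap the 41, behaved in a graded way in the averaged comparison. Of all genes tested 1.23% rose and 1.31% fell there. Of 88 further mitotic genes 25 rose and 1 fell (median 0.72), among them Iqgap3 (1.41 ± 0.32), Sgo2a (1.26), the shugoshin that guards centromere cohesion, Cenpm (1.48) and Spc24 (1.04), which completes the NDC80 complex with Spc25. Pttg1, encoding securin, was the one that fell, by 0.20. Of 54 replication and S-phase genes 7 rose (median 0.40), among them Atad2 (0.73), Pola1 (0.43), a DNA polymerase subunit, and Cdc45 (0.80), of the replicative helicase. Pcna, the sliding clamp of replication, was at 43.3 to 49.5 CPM in normoxia with vehicle and at 46.0, 85.5, 44.7, 48.0, 45.6 and 74.3 CPM in normoxia with ABT-263, high in replicates 2 and 6 but not in replicate 1. The helicase subunit Mcm2 did the same, with 12.6 CPM in replicate 1 and 28.4 and 29.5 CPM in replicates 2 and 6, vehicle being at 12.5 to 19.4 CPM. None of 8 G1 cyclins and kinases passed (median 0.06; 3 at an unadjusted p under 0.05), nor did any of 14 subunits of MuvB, E2F and NF-Y complexes (median 0.03; 3 at an unadjusted p under 0.05).

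Of 18 tested inhibitors and brakes of the cell cycle 2 rose (background 1.23%). They were Cdkn1a (0.58 ± 0.11, adjusted p = 0.00998 by edgeR), the p21 inhibitor, and Cdkn3 (1.35), a phosphatase of CDKs. Cdkn1a was at 101, 73.8, 89.5, 99.7, 71.6 and 82.8 CPM in normoxia with ABT-263 and at 39.1 to 70.6 CPM in normoxia with vehicle, so that it was above vehicle in all 6 libraries, including the 3 where Cdk1 was not. In hypoxia Cdkn1a was at 64.7 to 105 CPM with ABT-263 and 45.3 to 73.6 CPM with vehicle, which overlap. E2f1 was at 7.06 to 10.6 CPM in normoxia with vehicle and 8.85 to 11.5 CPM with ABT-263. Mybl2, which encodes the B-MYB partner of MuvB, was at 0.991 to 2.64 CPM over all 22 libraries, and Lin9, a MuvB subunit, at 3.84 to 7.45 CPM.

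Mcidas and Ccno, genes of centriole amplification and multiciliated cell fate, were high in 5 libraries, among them the libraries in which the 41 genes were highest. Mcidas, a switch of that fate, was at 18.2, 19.2 and 17.5 CPM in replicates 1, 2 and 6 of normoxia with ABT-263, at 5.05 and 5.02 CPM in replicates 1 and 4 of hypoxia with ABT-263, and at 0.379 to 1.78 CPM in the other 17. Ccno, a cyclin of that programme, was at 49.2, 51.2, 46.9, 15.3 and 24.5 CPM in the same 5 and at 2.46 to 7.06 CPM elsewhere. The 9 genes of this list summed to 607, 525.9 and 455 CPM in the first 3 and to 304 to 317 CPM in the other 3 libraries of that group, against 194 to 286 CPM in normoxia with vehicle. In the averaged comparison 3 of 9, Foxn4, Mcidas and Ccno, rose (background 1.23%). Replicate 1 of normoxia with ABT-263 had as much Mcidas as replicates 2 and 6 but a mean log2 CPM of 2.81 against 4.08 and 4.07. Replicates 2, 3 and 5 of hypoxia with ABT-263, with 0.496 to 0.818 CPM of Mcidas, stood at 2.65 to 3.26, above every vehicle library. Replicates 2 and 5 of these, at 3.12 and 3.26, were also above replicate 1 of normoxia with ABT-263. In a fit without the 5 libraries, chosen after seeing the data, ABT-263 in hypoxia raised 19 of 41 genes (background 0.835%), with a median of 0.84 and Birc5 (1.01 ± 0.15), Cenpf (1.30) and Cdk1 (1.02) among those called. In the fit of all libraries 0 were called at a median of 1.26, and the standard error of Cdk1 was 0.57 there and 0.19 here. More genes were called here at a lower median and, for Cdk1, a smaller standard error. Replicates 1 and 4, left out here, were the highest of hypoxia with ABT-263, so the lower median follows from the choice. Why more genes were called was not tested. Without the 5 libraries, hypoxia against normoxia with ABT-263 called all 41 higher (background 17.3%), which follows from leaving out the 3 normoxic libraries where they were high. The averaged comparison called none (0 of 41, background 0.567%, 13 at an unadjusted p under 0.05 by edgeR, median 0.26). All 5 are ABT-263 libraries and include those where the 41 genes were highest, so this lower median follows from the choice as well. The part of the multiciliated programme in the level of the 41 genes was not tested.

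**Figure D5:**
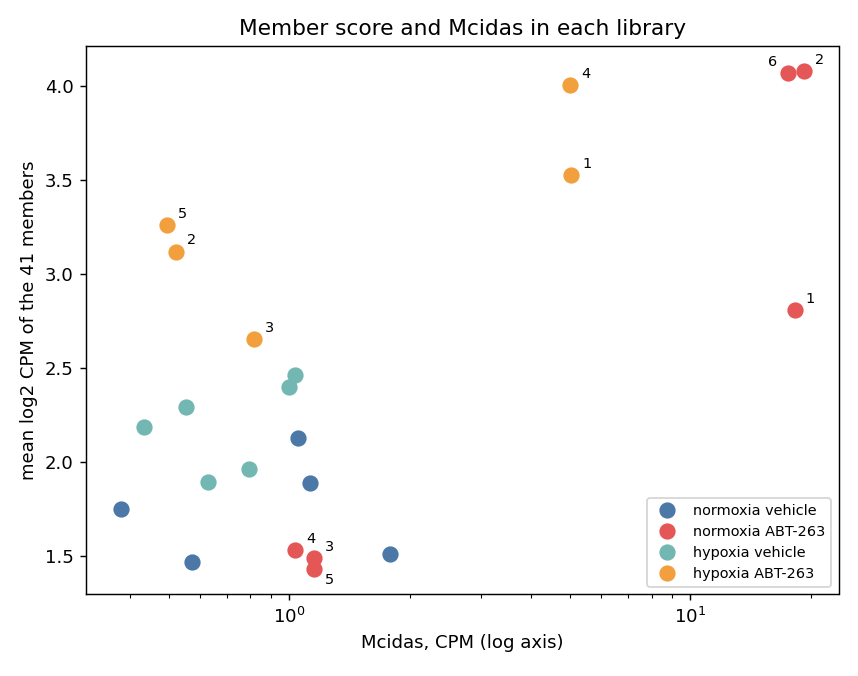
Mean log2 CPM of the 41 genes (vertical) against CPM of Mcidas (horizontal, log axis) in the 22 libraries, coloured by group and numbered by replicate for ABT-263. The 5 libraries above 2 CPM of Mcidas lie right, and replicates 2, 3 and 5 of hypoxia with ABT-263 lie above the vehicle libraries at low Mcidas.

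The 12 marker genes of mature ciliated cells summed to 1352, 1261 and 1072 CPM in replicates 1, 2 and 6 of normoxia with ABT-263 and to 1312, 1461 and 1610 CPM in replicates 3, 4 and 5, with 1110 to 1434 CPM in normoxia with vehicle. They summed to 948 and 1029.9 CPM in replicates 1 and 4 of hypoxia with ABT-263, and to 978 to 1362 CPM in the other 3. Lymphocyte genes fell under ABT-263, 12 of 12 B cell, 8 of 11 T cell and 8 of 10 natural killer cell genes in the averaged comparison (background for a fall 1.31% of genes). Erythroid precursor genes did not pass (0 of 9 tested by edgeR, 1 at an unadjusted p under 0.05), at 76.2 to 131 CPM in normoxia with ABT-263. Granulocyte precursor genes did not pass either (0 of 6 tested by edgeR, 2 at an unadjusted p under 0.05), though all 6 had log2 fold changes above 0 (median 0.50). They summed to 540.98 and 519.8 CPM in replicates 2 and 6 of normoxia with ABT-263, to 255 to 424 CPM in the other 4 and to 217 to 343 CPM in normoxia with vehicle. Elane was at 0 in every ABT-263 library and nearly every vehicle library. The exceptions were replicate 1 of normoxia with vehicle (0.069 CPM) and replicate 1 of hypoxia with vehicle (0.074 CPM). These sums include Chil3, which is also on the alveolar macrophage list. What these cell types contribute to the 41 genes was not tested.

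Among the genes outside the 41, those whose levels ran most like theirs over the 22 libraries, by Spearman's rho with the mean log2 CPM of the 41, were Cip2a (0.98), an inhibitor of the phosphatase PP2A, Cks2 (0.98), a CDK-binding subunit, Cep55 (0.97), Spag5 (0.97), Esco2 (0.97), Tacc3 (0.96), Knstrn (0.95), Rad54b (0.95), Kif20b (0.95) and Shcbp1 (0.95). All but Cip2a and Rad54b are on the list of further mitotic genes. Within the 41 the same measure against the mean of the other 40 ran from 0.80 for Kif2c and Cenpa to 0.98 for Ccnb2 and Cdk1. These values describe 22 libraries that share depth, sequencing and 4 groups.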

How the data were processed

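Poly(A) RNA of mouse lung was sequenced in 22 stranded libraries. The authors deposited expected counts per gene, made with Trimmomatic, STAR and RSEM on GRCm38 per the submitters' processing notes (versions are not given in the sources used here). RSEM shares reads between similar genes, so close copies are uncertain. Expected counts were rounded here. Genes were kept by filterByExpr (minimum count 10), scaled by TMM and fitted in 1 model of the 4 title groups with edgeR 4.0.16 (quasi-likelihood test, two-sided, Benjamini-Hochberg over 16638 genes, adjusted p under 0.05, R 4.3.3). DESeq2 1.42.0, limma-voom (limma 3.58.1), other scalings, filters and sample sets were alternatives. CPM are counts scaled to the TMM library size, and log2 CPM used a prior count of 2. The script was tested on simulated data. No 2 libraries of a group held the same counts (chi-square per gene 5.03 to 37.6). Nothing in the labels says that each library is a separate mouse, so p-values measure only the spread between these samples, which may be technical.

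Per-library values were given by a rule: the most abundant gene of each role, a set list of core genes, and the genes passing with the smallest p. For each comparison the smallest p and most extreme fold changes were named; other genes quoted were chosen after their values were seen. Members and lists were chosen with earlier results of these data known. Gene positions and exon lengths are from GENCODE M21, promoters from RefSeq GRCm38.p6, and figures were drawn with matplotlib 3.10.9.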

Additional observations from a re-analysis of the deposited data

Results flagged for a closer look

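Of 88 groups of 4 to 10 libraries checked gene by gene, 4 held a library set apart from the rest by more than Dixon's limit; chance gives about 1 in 20. Foxm1 was at 3.90 CPM in replicate 2 of normoxia with vehicle, the others being at 1.93 to 2.43 CPM. Foxm1 was also at 5.90 CPM in replicate 1 of hypoxia with vehicle, against 2.90 to 3.85 CPM. Aurkb was at 11.9 CPM in replicate 4 of hypoxia with ABT-263, against 4.26 to 5.63 CPM. Kif11 was at 2.07 CPM in replicate 4 of hypoxia with vehicle, against 1.18 to 1.45 CPM.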

How the results depend on the processing

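Of the 41 genes, the averaged ABT-263 effect called 21, and 39 with DESeq2, 2 with limma-voom, 13 with library totals, 4 with no filter on low counts, 35 without the robust spread, 2 without the 3 libraries with conflicting labels, 0 with treatment read from the tag (33 at an unadjusted p under 0.05 by edgeR) and 8 without replicates 2 and 6 of normoxia with ABT-263. Leaving out 2 further sets was chosen after seeing the data: replicates 1, 2 and 6 of that group, and the 5 libraries with Mcidas above 2 CPM. These gave 0 and 0 (26 and 13 at an unadjusted p under 0.05 by edgeR), with medians of 0.44 and 0.26. Of all genes they called 189 and 242. The sets hold ABT-263 libraries only, among them those where the 41 genes were highest, so the lower medians follow from the choice. Leaving out single libraries gave 1 to 38. With treatment read from the tag, 0 of all genes tested were called. Up or down, the main fit called 423 of all genes, DESeq2 793, limma-voom 239, library totals 271 and no filter 257. The number was 469 without the robust spread, 285 without conflicting labels and 290 without replicates 2 and 6.

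ABT-263 in hypoxia called 0 genes, but 4 with DESeq2, 34 with only the compared groups, 29 without replicates 2 and 6, 40 without 1, 2 and 6, 19 without the 5 libraries, and 0 to 1 without single libraries. In that order, up to the set of 5, these settings called 247, 152, 257, 277 and 220 of all genes, against 50 in the main fit. The normoxic libraries left out are part of the shared spread. The set of 5 also leaves out replicates 1 and 4 of hypoxia with ABT-263, where the 41 genes were highest in that group. These higher counts do not show a larger rise in hypoxia. ABT-263 in normoxia called 0 (89 of all genes), and 9 with DESeq2 (324 of all genes). Its median was 0.15, -0.27 and -0.27 under the 3 left-out sets. These sets remove the normoxic libraries where the 41 genes were highest, so the lower medians follow from the choice. Under the last 2 of these sets Cdk1 was at -0.15 and -0.16, Ckap2l at -0.11 and -0.12, and Kif2c at -0.0064 and -0.012. The averaged Mcidas effect was -0.056 without the 5 libraries.

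Hypoxia with ABT-263 called 2 genes, and 4 with DESeq2, 14 with limma-voom, 0 with no filter, 5 without the robust spread, 0 with only the compared groups, 0 without conflicting labels and 0 by the tag. The 3 left-out sets gave 37, 41 and 41, with medians of 1.45, 2.01 and 1.63, and single libraries 1 to 12. Apart from single libraries, these settings called 5565 to 6659 of all genes, up or down, against 6525 in the main fit. Hypoxia with vehicle called 0, and 15 with only the compared groups, then 5, 13 and 15 under the left-out sets. Of all genes it called 4380, and 4506 with only the compared groups, then 4684, 4620 and 4843. The interaction called 0, and 2, 12 and 5 under those sets, with medians of 1.01, 1.501 and 1.16. Of all genes it called 0, and 8, 42 and 29 under those sets. The cause was not tested. No paired analysis was possible because the labels give no replicate numbers shared between groups. Low counts and the spread between libraries both limit the precision of these genes. For ABT-263 in hypoxia the standard error of Cdk1 was 0.57 in the main fit and 0.24 with only the compared groups.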
